A study of Mus musculus with 35 samples.

Results

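Cells enriched for astrocytes from the hypothalamus were compared with those from the hippocampus in mice fed a high-fat high-sugar (HFHS) diet. The comparison took the 12 libraries labelled with both the diet and 1 of the 2 regions, 5 of hypothalamus and 7 of hippocampus, out of 35 libraries in the series. The animals were male C57BL/6JRj mice that entered the study at 8 to 9 weeks of age and ate the HFHS diet (58%) for 4 months. Each replicate combined 2 animals and so is a pool rather than a single mouse. In both regions cells were captured with magnetic beads against ACSA2, a surface antigen encoded by Atp1b2, on the same type of column and with the same reagent volumes. A second set of mice of the same strain, sex and age on standard chow (SC), with 6 hypothalamus and 5 hippocampus libraries, served as a comparison that shares no library with the first. RNA was copied with a kit for small input that does not keep strand, so the reads of a gene and of its antisense partner cannot be told apart.

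The hypothalamus lines the third ventricle, and its floor holds tanycytes, specialised ependymoglial cells that carry signals between blood, cerebrospinal fluid and the neurons that set appetite and body weight. The hippocampus belongs to the telencephalon, which is patterned by other transcription factors and lies beside the lateral ventricle with its choroid plexus. Glia keep part of the positional programme of the region in which they arose, and region-specific astrocyte genes are known in both structures.

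The data were not those of pure astrocytes. The mature oligodendrocyte markers together held a median of 76095 TPM (a transcript level scaled for length and depth) in the hypothalamus and 78763 in the hippocampus, against 7816 and 4262 for the astrocyte markers. No astrocyte marker was below the low-count filter, and microglial, neuronal, ependymal and choroid plexus transcripts were present as well. The astrocyte score, the mean log2 CPM (counts scaled to library size) of 20 markers, ranged from 8.47 to 10.30 in the hypothalamus and from 6.82 to 9.27 in the hippocampus. Hypothalamus replicate 2 stood apart at 10.30, with the next library of that region at 8.72. The 12 libraries held between 47861441 and 65982495 assigned reads, and the first principal component, with 38% of the variance of 1000 genes, placed all 5 hypothalamus libraries on the other side of 0 from all 7 hippocampus libraries. In bulk RNA of this kind, fewer cells of a type and less RNA per cell cannot be told apart.

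**Figure D1:**
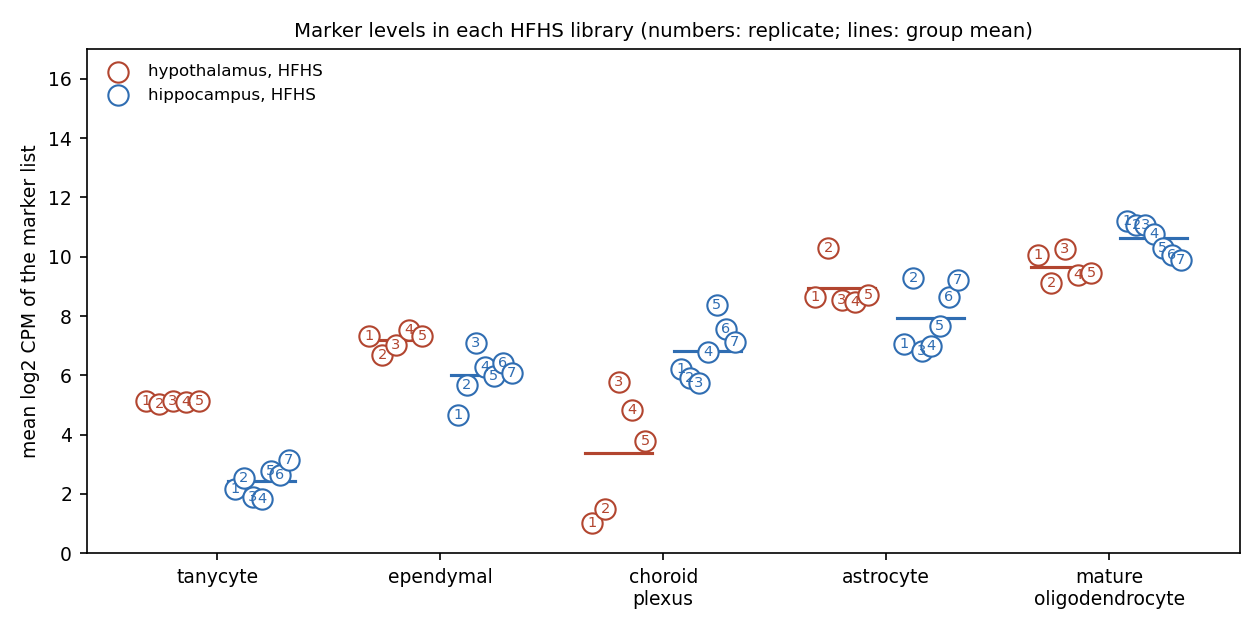
Mean log2 CPM of 5 marker lists (y axis) in the 5 hypothalamus and 7 hippocampus libraries on HFHS; each circle is a library with its replicate number and each line a group mean. Tanycyte scores lay between 5.03 and 5.15 in all hypothalamus libraries and between 1.83 and 3.13 in all hippocampus libraries, while the astrocyte scores of the regions overlapped.

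Of 19293 genes tested, 1656 (8.58%) differed between the regions at an adjusted p under 0.05 in edgeR's quasi-likelihood test with Benjamini-Hochberg adjustment. The hypothalamus was higher in 874 genes (4.53%) and lower in 782 (4.05%). The median size of the difference was 1.36 on the log2 scale among the former and 1.03 among the latter. In 1171 genes (6.07%) the CPM values of the regions did not overlap, with the hypothalamus higher in 644 (3.34%) and lower in 527 (2.73%). When each library was left out in turn, all 1656 genes kept their direction and 636 of them (378 higher and 258 lower in the hypothalamus) passed the threshold in every one of the 12 fits. The genes were called on these same libraries, so the kept direction alone says little about stability. The count fell to 773 without hypothalamus replicate 4, to 857 without hypothalamus replicate 5 and to 1101 without hippocampus replicate 4. The shares of all genes, 4.53% higher, 4.05% lower and 6.07% without overlap, are the background for the list counts on HFHS below. In a short list a small count can lie close to these shares. Below, a log2 fold change is the fitted hypothalamus level minus the hippocampus level, with its standard error (SE), and adjusted p values come from that test over all genes.

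Most tanycyte markers were higher in the hypothalamus. Of 14 tanycyte markers, all of which were tested, 8 rose, namely Gpr50, Rax, Col25a1, Col23a1, Fgf10, Frzb, Scn7a and Crym, and 1, Cd59a, fell. The median of the list was 2.00 on the log2 scale, against 0.00 over all genes tested, and 8 of the 14 did not overlap between the regions. The count of members higher in the hypothalamus ran from 7 to 9 when single libraries were left out.

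Rax, the homeobox factor that marks tanycytes and the embryonic hypothalamus, measured 33.7, 23.4, 18.3, 27.4 and 28.7 CPM in hypothalamus replicates 1 to 5, and from 0.174 through a median of 0.369 to 1.37 CPM in the hippocampus. Every hypothalamus library exceeded every hippocampus library, with a log2 fold change of 5.80 (SE 0.47, edgeR adjusted p = 2.79e-05). Gpr50 (chrX:71663667-71669257, GRCm38), an orphan receptor related to the melatonin receptors and concentrated in tanycytes, measured 88.5, 85.5, 94.3, 79.5 and 93.6 CPM in the hypothalamus. The spread between these 5 pools was narrow. In the hippocampus Gpr50 ran from 0 through 0.349 to 1.41 CPM, and its log2 fold change was 7.32 (SE 0.77, edgeR adjusted p = 0.000278). Neither gene overlapped between the regions.

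Col23a1 and Col25a1 encode transmembrane collagens. Col23a1 (chr11:51289920-51583918) measured 147, 88.1, 83, 114 and 37 CPM in the hypothalamus and 0.992, 3.83 and 6.45 CPM as the lowest, median and highest hippocampus value, a log2 fold change of 4.61 (SE 0.44, edgeR adjusted p = 9.43e-05). Hypothalamus replicate 5 was the lowest of its region and still lay above all hippocampus libraries. Col25a1 was 18.5 to 35.4 CPM in the hypothalamus and at most 1.43 in the hippocampus, where replicate 7 stood apart (log2 fold change 5.78, SE 0.69, edgeR adjusted p = 0.000708, and 6.50 without that library). Among all 30 collagen genes tested, 5 rose (Col5a2, Col9a2, Col11a1, Col23a1 and Col25a1) and 2 fell (Col8a1 and Col9a3), with a median of 0.61.

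Fgf10, a growth factor of tanycytes, reached 7.27 to 15.2 CPM in the hypothalamus and 0.082 to 1.43 in the hippocampus (log2 fold change 4.29, SE 0.60, edgeR adjusted p = 0.00174). Scn7a, the sodium-sensing channel of circumventricular glia, was 34.7 to 55 CPM against 2.94 to 16.9 (2.13, SE 0.34, edgeR adjusted p = 0.0038). Neither gene overlapped between the regions. Crym, a thyroid hormone-binding protein, was also higher (1.86, SE 0.46, edgeR adjusted p = 0.0251), but missed the threshold without hypothalamus replicate 4 (1.87, edgeR adjusted p = 0.0509). Cd59a, an inhibitor of complement, fell by 1.56 (SE 0.36, edgeR adjusted p = 0.0191), with edgeR adjusted p values of 0.0501 and 0.0558 without hypothalamus replicates 4 and 5. Dio2, the deiodinase that activates thyroid hormone, was not called at -0.81 (SE 0.62, edgeR adjusted p = 0.454), nor was the intermediate filament gene Vim at 0.78 (SE 0.27, edgeR adjusted p = 0.0891).

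Most tested transcription factors of the hypothalamus were higher there. Of 26 listed factors, 15 passed the low-count filter, 10 of these were called higher and 1, Lmx1a, lower. A factor confined to the hypothalamus can pass that filter only through its hypothalamus libraries, so the count is a description of the 15 and no more. Nkx2-1 (chr12:56531958-56536908), which patterns the ventral hypothalamus, measured 8.29, 7.43, 6.97, 11.5 and 7.77 CPM in the hypothalamus and from 0.218 through 0.919 to 1.16 CPM in the hippocampus. No library of either region reached into the range of the other (log2 fold change 3.47, SE 0.38, edgeR adjusted p = 0.000406). Six3 (chr17:85613608-85629302), a homeobox factor of the anterior forebrain, measured 39.5, 20.6, 18.2, 42.5 and 13.2 CPM against 1.09, 2.68 and 5.73 CPM as the lowest, median and highest hippocampus value (3.32, SE 0.43, edgeR adjusted p = 0.00112). Six6, its close relative, was 3.37 to 7.59 CPM against 0.0992 to 0.624 (4.05, SE 0.47, edgeR adjusted p = 0.000552).

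Few or no reads of some of these factors were found in the hippocampus. Nkx2-4 had 1713, 268, 304, 1003 and 174 reads in the hypothalamus libraries, 0 reads in 6 of the 7 hippocampus libraries and 2 reads in the other one (edgeR adjusted p = 2.79e-05). No fold change is given for it, since it would rest on a handful of reads. Also called higher were Rax, Irx3, Irx5, Foxb1 and Isl1, with log2 fold changes from 2.13 for Irx5 to 6.12 for Foxb1. Foxb1, a factor of the mammillary region, had 0 reads in 4 hippocampus libraries and 26 in replicate 2, without which its log2 fold change went from 6.12 to 7.42. Isl1, a factor of arcuate neurons, was 0.376 to 3.58 CPM against 0 to 0.402 CPM, so that the regions overlapped, and its log2 fold change went from 4.36 to 5.75 without hippocampus replicate 4. Lmx1a, a factor of the roof plate and of choroid plexus development, fell by 2.96 (SE 0.59, edgeR adjusted p = 0.0113) with no overlap.

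Some factors of the telencephalon lay on the other side. Of 21 tested members, 7 were lower in the hypothalamus and 14 were not called, and the list median was -1.12. Emx2 (chr19:59458372-59465357), a homeobox factor needed for the hippocampus to form, measured 1.39, 0.779, 0.681, 1.29 and 0.31 CPM in the hypothalamus and from 3.65 through 4.91 to 16.8 CPM in the hippocampus. It fell by 3.14 on the log2 scale (SE 0.51, edgeR adjusted p = 0.00417), and its relative Emx1 fell by 2.92 (SE 0.47, edgeR adjusted p = 0.00393). The regions did not overlap in either gene. Dmrt3 (chr19:25610301-25623921), a factor of the medial pallium, had 12, 0, 10, 0 and 1 reads in the hypothalamus libraries and 120 to 953 per hippocampus library (-6.39, SE 0.92, edgeR adjusted p = 0.00206, and -7.11 without hypothalamus replicate 1). The neuronal factors Neurod2, Neurod6 and Tbr1 also passed, with overlapping values, as did Dmrta2. Neurod2 stood at -3.32 and went to -4.38 without hypothalamus replicate 5, and missed the threshold without replicate 4 (-3.08, edgeR adjusted p = 0.0562). Neurod6 missed it in 5 and Tbr1 in 9 of the 12 fits that left out 1 library. The count of lower members was 3 without hypothalamus replicate 4.

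**Figure D2:**
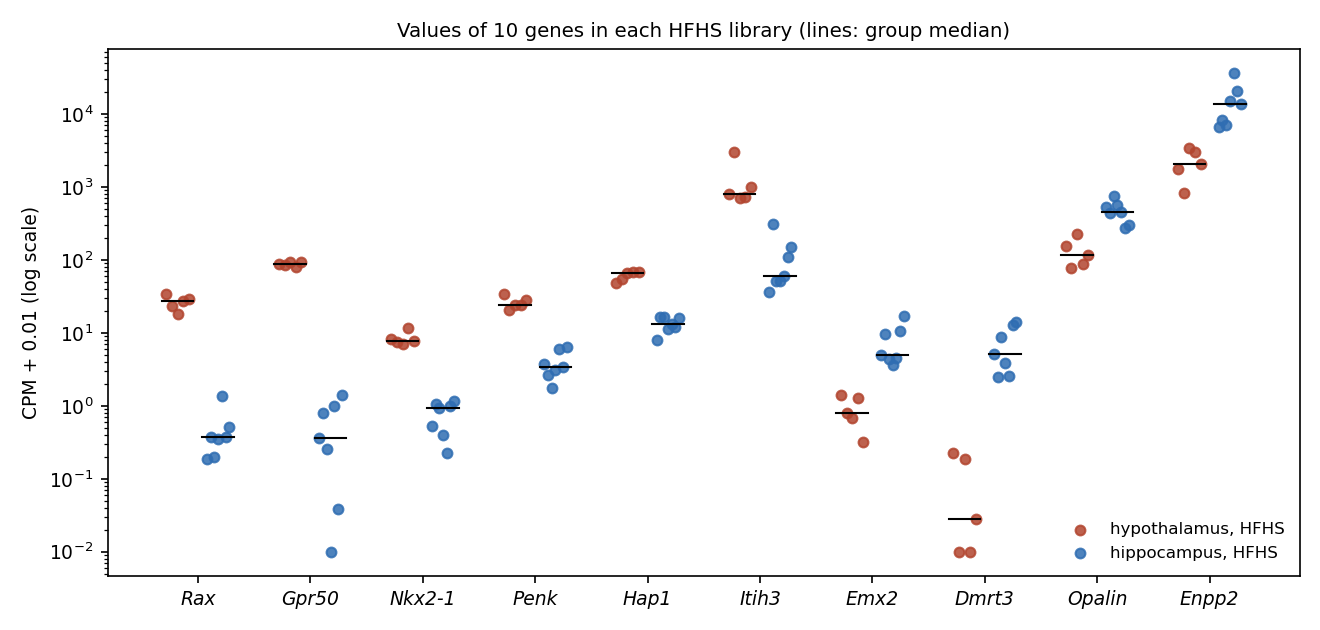
CPM plus 0.01 on a log scale (y axis) for 10 genes in each of the 5 hypothalamus and 7 hippocampus libraries on HFHS; points are libraries and lines group medians. The regions are separate for every gene drawn, with Rax, Gpr50, Nkx2-1, Penk, Hap1 and Itih3 higher in the hypothalamus and Emx2, Dmrt3, Opalin and Enpp2 lower.

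Precursors of neuropeptides and genes of the dense-core granules that store them were in part higher in the hypothalamus. Of 24 listed peptide genes, 20 passed the filter, 8 of these rose (6 to 8 when single libraries were left out) and 1, Nts, which encodes neurotensin, fell, with a median of 1.11. A peptide gene confined to the hypothalamus can pass that filter only through its hypothalamus libraries. The count and the median therefore describe the 20 and no more. Penk (chr4:4133531-4138819), which encodes the enkephalin precursor, measured 34, 20.4, 24.4, 24.4 and 28.1 CPM in the hypothalamus and from 1.74 through 3.36 to 6.38 CPM in the hippocampus. All hypothalamus libraries were above all hippocampus libraries (log2 fold change 2.76, SE 0.30, edgeR adjusted p = 0.00033). Ghrh, Cartpt and Adcyap1, which encode the growth hormone-releasing, satiety-linked CART and PACAP peptides, had log2 fold changes of 2.47, 1.77 and 2.59, all with levels under 4 CPM and with no overlap. Of the peptides that govern feeding, which were named after their values were seen, Pomc was not called at 0.66 (SE 0.26, edgeR adjusted p = 0.129), nor Npy at -0.58 (SE 0.31, edgeR adjusted p = 0.26), nor Agrp at 0.46 (SE 0.88, edgeR adjusted p = 0.791). Agrp did not exceed 0.281 CPM in any library of either region. Avp, the vasopressin precursor, rose (1.59, SE 0.41, edgeR adjusted p = 0.0284) but missed the threshold in 3 of the 12 fits that left out 1 library, those without hypothalamus replicates 3 and 5 and without hippocampus replicate 4.

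Of 13 secretory granule genes, 6 rose, with a list median of 1.71. Resp18, a granule protein of neuroendocrine cells, measured 21.8, 10.1, 15.5, 29.1 and 25.7 CPM against 2.93, 3.34 and 5.00 CPM as the lowest, median and highest hippocampus value (2.48, SE 0.27, edgeR adjusted p = 0.00033). Chga, the granin that packs granule cargo, was far more uneven, with 142, 34.4, 27.2, 345 and 90.2 CPM in the hypothalamus and at most 6.9 in the hippocampus. Replicate 4 was the highest, and without it the log2 fold change of Chga went from 4.87 to 4.06. A pair of genes known from the pituitary, chosen after their values were seen, had the same libraries highest, with 1313, 246, 196, 2276 and 362 reads for Cga and 193, 37, 18, 1006 and 41 reads for Pitx1. The part of pituitary RNA in the peptide and granule values was not tested. Scg2 and Baiap3, another granin and a protein of granule exocytosis, had log2 fold changes of 2.71 and 2.44, and none of the 4 genes overlapped between the regions. The neuronal markers gave the values to set beside these. Of 12 pan-neuronal markers edgeR called 0 of them, with 3 at an unadjusted p under 0.05 and 1 called by each of DESeq2 and voom, and their scores overlapped, at 3.87 to 4.37 in the hypothalamus and 3.11 to 4.65 in the hippocampus. Of 9 inhibitory neuron markers tested 3 were higher, namely Gad2, Slc32a1 and Vip, but Slc32a1 missed the threshold in all 12 and Gad2 in 7 of the 12 fits that left out 1 library, and the count of the list was 1 without hypothalamus replicate 2, 4 or 5 or without hippocampus replicate 2, 3, 4 or 6. Their part in the peptide and granule values was not tested.

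Imprinted genes, several of which are known from the hypothalamus, moved in part. Of 28 tested, 5 rose and 2 fell, with a median of 0.49, and the count that rose was 2 without hypothalamus replicate 4 and 3 without replicate 5. The genes that rose were Ndn, Nnat, Usp29, Dlk1 and Peg10, and those that fell were Igf2 and Cdkn1c, of which none was called without hypothalamus replicate 5 and 1 without any other hypothalamus library or without hippocampus replicate 4, 5, 6 or 7. Ndn, which encodes necdin and lies in the Prader-Willi region, measured 103, 88.6, 80.2, 144 and 97.2 CPM against 21.2, 32.1 and 43.6 CPM as the lowest, median and highest hippocampus value (1.70, SE 0.20, edgeR adjusted p = 0.00053). Nnat, which encodes neuronatin, lay between 2590 and 4161 CPM against 347 to 1715 (1.85, SE 0.30, edgeR adjusted p = 0.00388). Neither gene overlapped between the regions.

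Few astrocyte markers were called. Of 20 markers 1 was called, S100b, a calcium-binding protein, at 362 to 609 CPM in the hypothalamus and 171 to 363 in the hippocampus (log2 fold change 1.0, SE 0.20, edgeR adjusted p = 0.0109). The median of the list was 0.88, and 17 of the 20 log2 fold changes were positive. In edgeR 7 markers had an unadjusted p under 0.05, while DESeq2 called 3 and voom 2. Without hippocampus replicate 2 edgeR called 4 markers. Atp1b2, which encodes the sorting antigen, stood at 1.71 (SE 0.62, edgeR adjusted p = 0.102), the water channel Aqp4 at 0.79 (SE 0.50, edgeR adjusted p = 0.356) and the filament gene Gfap at -0.77 (SE 0.51, edgeR adjusted p = 0.377). None of these 3 passed, and the regions overlapped in each.

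Itih3, Spon1, Igsf1 and Lrig1 were picked for the size of their difference on HFHS, as were Gria1, Sdc3, Etnppl, Cd38, Slc6a11, Hap1, Dtx1, Gpld1 and Fbln5, so that size is a description. Itih3 (chr14:30908572-30923760), a hyaluronan-binding inter-alpha-trypsin inhibitor chain, measured 801, 2974, 706, 723 and 983 CPM in the hypothalamus and from 36.5 through 59.6 to 307 CPM in the hippocampus. Every hypothalamus library was above every hippocampus library (log2 fold change 3.47, SE 0.58, edgeR adjusted p = 0.0047). Spon1, an extracellular matrix protein, measured 221, 680, 196, 208 and 257 CPM against 5.18, 17.4 and 89.5 CPM as the lowest, median and highest hippocampus value (3.57, SE 0.66, edgeR adjusted p = 0.00811). Igsf1, an X-linked immunoglobulin family protein of the hypothalamus and pituitary, stood at 3.28 (SE 0.61, edgeR adjusted p = 0.00841), and Lrig1, an inhibitor of growth factor receptors, at 2.94 (SE 0.61, edgeR adjusted p = 0.0128). In all 4 genes hypothalamus replicate 2, the library with the highest astrocyte score, was the highest. Without it the log2 fold change was 2.88 for Itih3, 2.62 for Igsf1 and 1.91 for Lrig1, and all 3 remained called. Spon1 went to 4.38 without hippocampus replicate 2, which had the highest astrocyte score of its region.

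Hypothalamus replicate 2 was also the highest for the following genes. Gria1, an AMPA receptor subunit, measured 75.6, 355, 70.4, 78.5 and 90.7 CPM in the hypothalamus and 8.74 to 47.5 in the hippocampus, a log2 fold change of 2.61 (SE 0.52, edgeR adjusted p = 0.0112) that became 1.87 without hypothalamus replicate 2. Sdc3, a heparan sulfate proteoglycan that acts in feeding behaviour, stood at 2.31 (SE 0.46, edgeR adjusted p = 0.0109) and at 1.62 without that library, and Kcnd2, a voltage-gated potassium channel subunit, at 2.59 (SE 0.58, edgeR adjusted p = 0.0172) and at 1.94. Etnppl, an astrocyte enzyme that breaks down phosphoethanolamine, and Cd38, an NAD-consuming ectoenzyme, had log2 fold changes of 2.49 and 2.45, which missed the threshold without it (1.97, edgeR adjusted p = 0.0554, and 1.80, edgeR adjusted p = 0.0661). Slc6a11, the GABA transporter GAT-3, stood at 3.18 (SE 0.93, edgeR adjusted p = 0.0498) and was called in only 1 of the 12 fits that left out 1 library, the one without hippocampus replicate 2 (4.51), and stood at 2.33 without hypothalamus replicate 2.

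Hap1 was not highest in hypothalamus replicate 2. This gene (chr11:100347327-100356128), which encodes huntingtin-associated protein and is known for its hypothalamic expression, measured 48.7, 54.4, 66.8, 68.1 and 68.6 CPM in the hypothalamus and from 7.87 through 13.3 to 16.7 CPM in the hippocampus. The regions were separate and hypothalamus replicate 2 was among the lower libraries (log2 fold change 2.19, SE 0.19, edgeR adjusted p = 4.71e-05). Dtx1, a Notch pathway ubiquitin ligase, Gpld1, a phospholipase that releases GPI-anchored proteins, and Fbln5, an elastic fibre protein, had log2 fold changes of 2.18, 2.17 and 2.16, with no overlap between the regions, and hypothalamus replicate 2 was the highest library for all 3. Sparc, a matrix protein that limits synapse formation, lay between 2031 and 7069 CPM against 539 to 1429 (2.03, SE 0.36, edgeR adjusted p = 0.00629). Of 18 synaptogenic and matrix factors, Sparc and the proteoglycan Vcan were higher, and Thbs4 and Chrdl1, which promote synapses, were lower, at -4.29 and -3.33. Chrdl1 missed the threshold without hypothalamus replicates 4 and 5.

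The fit was repeated with the astrocyte score as a covariate, of which region accounted for a share of 0.23 of the variance over the 12 libraries. It called 942 genes (4.88%), 514 higher (2.66%) and 428 lower (2.22%) in the hypothalamus, and 789 of them had been called without it. Itih3 stood at 2.58 in that fit (edgeR adjusted p = 0.000164), Spon1 at 2.77 (edgeR adjusted p = 0.000688), Gria1 at 1.61 (edgeR adjusted p = 0.00283) and Hap1 at 2.10 (edgeR adjusted p = 0.000373). All 8 tanycyte markers called higher without the covariate stayed above 1.5 on the log2 scale. With the ependymal score added, of which region accounted for 0.51, the count was 80 genes (0.415%), 52 higher (0.27%) and 28 lower (0.145%), among them Rax (5.48, edgeR adjusted p = 0.0298), Gpr50 (7.35, edgeR adjusted p = 0.0279), Col23a1, Col25a1 and Frzb. The scores and region share variance, so their parts in a gene lost in this fit cannot be told apart.

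**Figure D3:**
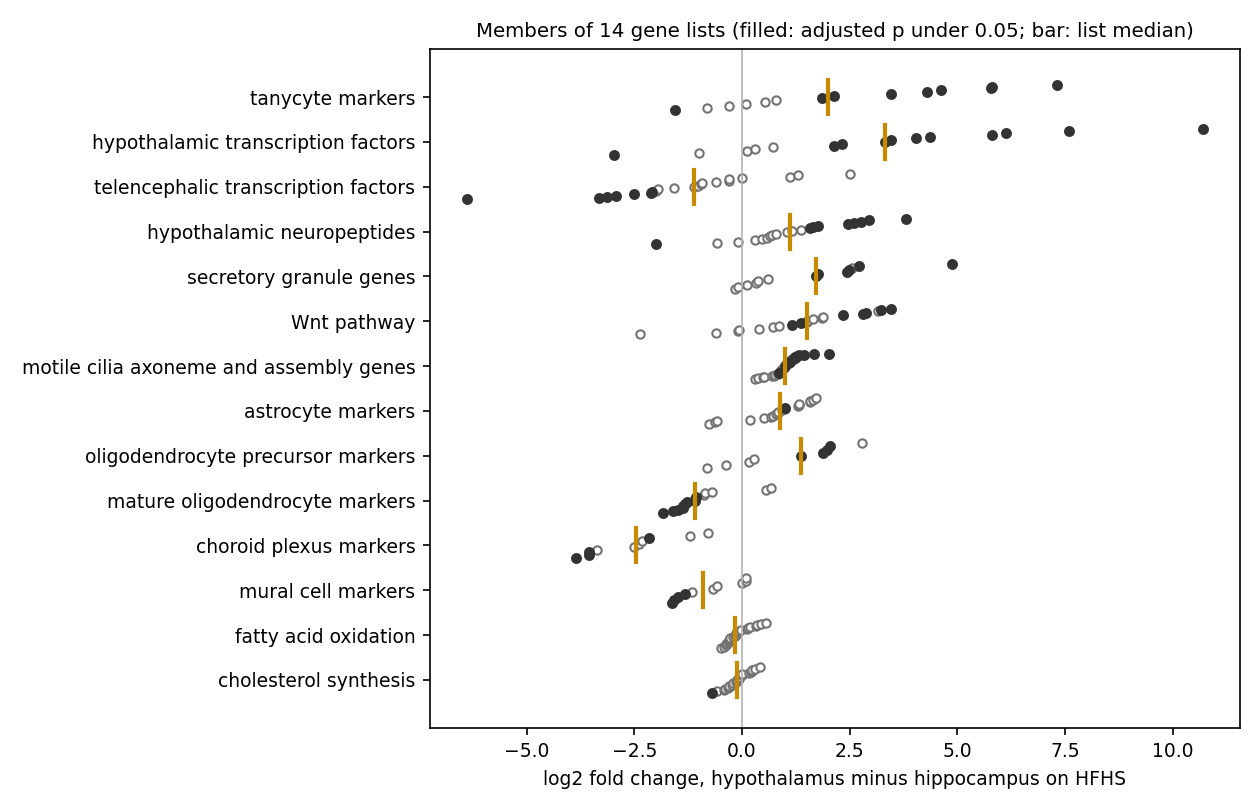
Log2 fold change of hypothalamus minus hippocampus on HFHS (x axis) for the tested members of 14 gene lists (y axis); each point is a gene, filled points passed an adjusted p of 0.05 and the bars are list medians. The medians of the tanycyte, hypothalamic factor, peptide, granule, Wnt, cilia, astrocyte and oligodendrocyte precursor lists lie to the right. Those of the telencephalic factors, mature oligodendrocyte, choroid plexus and mural cell markers lie to the left, and those of the metabolic lists sit near 0. The hypothalamic factor and peptide medians describe only the 15 and 20 members past the low-count filter. Genes confined to the hypothalamus can pass that filter only through its libraries.

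Part of the Wnt pathway was higher in the hypothalamus. The pathway is built of secreted ligands, Frizzled receptors and secreted antagonists, and acts in tanycyte and progenitor biology. Of 20 members 7 rose and 13 were not called, with a median of 1.51, and between 7 and 10 rose when single libraries were left out. The mean log2 CPM of the list was 4.10 in hypothalamus replicate 2, the library with the highest astrocyte score, and 3.18 to 3.39 in the other 4 libraries of that region, against 1.35 to 2.53 in the hippocampus. With the astrocyte score as a covariate the median was 0.79 and 5 members were called. Both ligands among the named genes rose, with Wnt5a at 10.4 to 17 CPM against 3.19 to 7.63 (1.37, SE 0.23, edgeR adjusted p = 0.00471) and Wnt8b at 0.609 to 2.15 CPM against 0.188 to 0.371 (2.35, SE 0.41, edgeR adjusted p = 0.00606). The antagonists Frzb, also counted among the tanycyte markers, and Sfrp5 rose too. Frzb measured 45.1, 25.4, 38.3, 42.1 and 36.9 CPM against 1.07, 2.88 and 7.57 CPM as the lowest, median and highest hippocampus value (3.45, SE 0.37, edgeR adjusted p = 0.00033), and Sfrp5 stood at 2.80 (SE 0.39, edgeR adjusted p = 0.00184). None of these 4 genes overlapped between the regions. Of 11 Hedgehog pathway genes tested, 3 rose, Gli1 and Smo among them, and Hhip, an inhibitor, fell, with a median of 1.12. In the fit with the astrocyte score as a covariate the Hedgehog median was 0.57 and 0 members were called. Hhip missed the threshold in 7 of the 12 fits that left out 1 library. Gli1, the transcriptional target of the pathway, stood at 2.80 (SE 0.66, edgeR adjusted p = 0.0205), but missed the threshold without hypothalamus replicate 2 (2.43, edgeR adjusted p = 0.0516), when no member of the list was called higher, and 1 was without replicate 4 and 5 without hippocampus replicate 2.

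Of 42 genes of motile cilia tested, 13 were called higher in the hypothalamus and 29 were not called. Motile cilia, carried by ependymal cells along the ventricle, are assembled under the transcription factors Foxj1 and Rfx2 and Rfx3, and RFX proteins bind a motif known as the X-box. All 42 had a positive log2 fold change, with a median of 1.0. Ccdc40 (chr11:119228572-119265238), a ruler of the axoneme, measured 69, 90.1, 101, 121 and 88.7 CPM in the hypothalamus and from 13.4 through 27.6 to 41.6 CPM in the hippocampus (1.67, SE 0.25, edgeR adjusted p = 0.00238). The regions did not overlap. Rfx2 stood at 1.22 (SE 0.26, edgeR adjusted p = 0.0137), Ccdc151, which docks outer dynein arms, at 1.44 (SE 0.32, edgeR adjusted p = 0.0173), and Foxj1 at 2.03 (SE 0.46, edgeR adjusted p = 0.0182). The last 2 missed the threshold without hypothalamus replicate 4 (1.27 and 1.68, edgeR adjusted p = 0.0577 and 0.0537).

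The number of cilia genes called was unstable. It was 2 without hypothalamus replicate 4, 5 without replicate 5, 7 without replicate 1 and 8 without replicate 3, and 23 without hippocampus replicate 3, the library with the highest ependymal score of its region. It was 6 without hippocampus replicate 4 or 7, 7 without hippocampus replicate 5 and 8 without hippocampus replicate 2. The list median stayed between 0.85 and 1.19. The ependymal score lay between 6.69 and 7.54 in the hypothalamus and between 4.66 and 7.08 in the hippocampus, and 3 of its 13 markers were called, Foxj1, Hdc and Ak7, of which Ak7 missed the threshold in 10 and Hdc in 3 of the 12 fits that left out 1 library. None of the 13 was called without hypothalamus replicate 4, 1 without replicate 1 or 5, and 10 without hippocampus replicate 3. With the astrocyte and ependymal scores as covariates the cilia median was 0.03, and 6 genes (Foxj1, Ak7, Rsph1, Rsph4a, Spag17 and Tekt1) belong to both lists.

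The promoters of these genes were read from the RefSeq promoter table (GRCm38.p6), where 33 of the 42 had a window from 250 bases before the start to 50 after it. The X-box, searched on both strands as GTTNCC followed directly by NNNGNAAC, was found in 5 of the 33 genes (15.2%), against 253 of 27025 genes in the table (0.936%). Of the 5, Ccdc151 was among those called higher in the hypothalamus, while Spag16, Tekt4, Hydin and Cfap44 stood between 0.90 and 1.13 on the log2 scale with adjusted p from 0.0508 to 0.0978 in edgeR. The sequences are shown because they carry the shared motif, in capitals, with Ccdc151 in full up to its start and the others as the stretch around the motif. In Hydin, Cfap44 and Tekt4 the match lies on the opposite strand, so the capitals show its reverse complement. A match is a match of letters and does not show that a factor binds there.
Ccdc151 (chr9:22002635-22002884, minus strand): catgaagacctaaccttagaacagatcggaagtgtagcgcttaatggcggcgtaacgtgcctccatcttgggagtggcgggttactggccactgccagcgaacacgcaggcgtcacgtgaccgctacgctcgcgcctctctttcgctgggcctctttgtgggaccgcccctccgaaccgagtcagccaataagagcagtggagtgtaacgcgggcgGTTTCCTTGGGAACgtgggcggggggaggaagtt
Spag16 (chr1:69826844-69826903, plus strand): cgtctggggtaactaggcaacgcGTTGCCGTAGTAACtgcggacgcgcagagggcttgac
Hydin (chr8:110266933-110266976, plus strand): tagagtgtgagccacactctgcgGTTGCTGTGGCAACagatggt
Cfap44 (chr16:44394749-44394798, plus strand): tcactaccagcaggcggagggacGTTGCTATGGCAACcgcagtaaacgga
Tekt4 (chr17:25471567-25471603, plus strand): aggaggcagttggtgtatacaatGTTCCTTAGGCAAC
In Ccdc151 the motif reads on both strands and begins 34 bases before the annotated start, and it begins 27 bases before the start in Cfap44 and 21 in Hydin. The core CTCAAG of NKX2-1 sites was searched in the same way in the 17 tanycyte markers and hypothalamic factors called higher in the hypothalamus, of which 12 had a window. It was found in 0 of the 12, against 18% of all genes in the table.

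Most mature oligodendrocyte markers were lower in the hypothalamus. Of 15 markers 10 fell, with a median of -1.09, and 5 of the 15 did not overlap. Opalin (chr19:41061710-41077113), a membrane protein of mature oligodendrocytes, measured 157, 78.3, 229, 87.3 and 117 CPM against 274, 457 and 751 CPM as the lowest, median and highest hippocampus value (-1.84, SE 0.31, edgeR adjusted p = 0.00501). Aspa, the aspartoacylase that supplies acetate for myelin lipids, and the iron carrier Trf fell by 1.48 and 1.33. None of these 3 genes overlapped between the regions. Mbp, the basic protein of myelin, went the other way without passing the test (0.55, SE 0.31, edgeR adjusted p = 0.289). The count that fell was 5 without hypothalamus replicate 4 or 5 and 6 without replicate 2.

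Some markers of earlier stages of the lineage were higher. Of 9 precursor markers 4 rose and 5 were not called, among them Olig1 at -0.38 and Sox10 at -0.82, with a median of 1.37, and 2 without hypothalamus replicate 4. Pdgfra, the growth factor receptor of oligodendrocyte precursors, measured 28.6, 27.1, 49.9, 97.2 and 52.4 CPM against 5.55, 11.7 and 31.4 CPM as the lowest, median and highest hippocampus value (1.89, SE 0.40, edgeR adjusted p = 0.0147). Lhfpl3, a membrane protein of the same cells, stood at 2.05 (SE 0.41, edgeR adjusted p = 0.0109). Both overlapped between the regions. The matrix proteins Matn4 and Tnr, at 1.98 and 1.37, each missed the threshold without hypothalamus replicate 4 and without 1 other library of that region. Of 7 tested markers of committed precursors, Tcf7l2, Gpr17 and Bcas1 rose and Bmp4 fell. Tcf7l2, a Wnt effector of newly forming oligodendrocytes, stood at 1.17 (SE 0.27, edgeR adjusted p = 0.018) and was called in all 12 fits that left out 1 library, which Gpr17, Bcas1 and Bmp4 were not. Only Tcf7l2 was called higher in this list without hypothalamus replicate 4 or 5 or without hippocampus replicate 4, and Bmp4 was not called without any 1 of the hypothalamus libraries or without hippocampus replicate 5.

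Some genes of the choroid plexus were lower in the hypothalamus, and the list varied widely within it. The choroid plexus, the epithelium that secretes cerebrospinal fluid, adjoins the dissected hippocampus. Of 10 markers 4 fell, Folr1, Sostdc1, Kcnj13 and Aqp1, with a median of -2.45. Ttr, the thyroid hormone carrier that dominates that tissue, measured 7.01, 6.59, 2677, 1062 and 461 CPM in the hypothalamus and from 2371 through 6641 to 18631 CPM in the hippocampus, and was not called (-3.37, SE 1.18, edgeR adjusted p = 0.0921). Hypothalamus replicates 1 and 2 were far below the other 3, and replicate 3 lay within the hippocampus range. Kcnj13, a potassium channel of the epithelium, measured 0.433, 1.3, 68.1, 51.5 and 15.9 CPM against 99.6 to 1072 (-3.86, SE 1.09, edgeR adjusted p = 0.0433), missed the threshold in 7 of the 12 fits that left out 1 library and went to -4.52 without hypothalamus replicate 3, as Sostdc1 went from -3.54 to -4.35. Folr1 missed the threshold without hypothalamus replicate 5, Sostdc1 without replicate 4 or 5 and Aqp1 in 9 of the 12 fits. Of the list 1 gene was called without hypothalamus replicate 4, none without replicate 5 and 2 without hippocampus replicate 4, 5, 6 or 7.

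Several of the genes with the lowest fold changes are known from that epithelium. The choroid plexus score was 1.03 to 5.78 in the hypothalamus and 5.75 to 8.37 in the hippocampus. Enpp2 (chr15:54838901-54952892), the autotaxin enzyme that makes lysophosphatidic acid and is made by oligodendrocytes as well, measured 1754, 824, 3468, 3040 and 2088 CPM in the hypothalamus and from 6622 through 13741 to 36256 CPM in the hippocampus (-2.78, SE 0.50, edgeR adjusted p = 0.00685). Prlr, the prolactin receptor, fell by 3.67 (SE 0.80, edgeR adjusted p = 0.0156), and Col8a1, a short-chain collagen, by 2.92 (SE 0.51, edgeR adjusted p = 0.00606). None of these 3 genes overlapped between the regions. Slc29a4, a monoamine transporter, Cldn2, a tight junction protein, and Trpv4, an osmosensitive channel, fell by 2.81, 2.69 and 2.12, with no overlap between the regions. Cldn2 missed the threshold without hypothalamus replicate 5, Slc29a4 without replicate 2 or 5, and Trpv4 without replicate 4. The part of choroid plexus RNA in these values was not tested.

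Mural cells, which wrap small vessels, gave 4 of 10 markers lower in the hypothalamus, with a median of -0.91. Kcnj8, a subunit of the potassium channel of pericytes, fell by 1.58 (SE 0.34, edgeR adjusted p = 0.0146), and Rgs5, a regulator of G protein signalling, by 1.32 (SE 0.29, edgeR adjusted p = 0.0156). Vtn, which encodes vitronectin, fell by 1.49 (SE 0.33, edgeR adjusted p = 0.0159) and Higd1b by 1.63 (SE 0.36, edgeR adjusted p = 0.0168), the latter not without hypothalamus replicate 5 (-1.53, edgeR adjusted p = 0.0519). Endothelial and microglial markers gave 0 calls of 13 and 0 of 14 in edgeR, with 2 and 0 at an unadjusted p under 0.05, while DESeq2 called 2 endothelial markers and no microglial one, and voom none of either. Of 10 excitatory neuron markers 5 were lower, Slc17a7, Grin2a and the factors Neurod2, Neurod6 and Tbr1, which were also counted among the telencephalic factors. Of the excitatory list 0 to 3 were lower without hypothalamus replicate 1, 2, 3, 4 or 5 or without hippocampus replicate 5 or 7. Outside that list, Hpca, the calcium sensor hippocalcin, measured 6.4, 5.79, 4.48, 9.29 and 8.52 CPM against 11.5, 31.3 and 77.5 CPM as the lowest, median and highest hippocampus value (-2.34, SE 0.41, edgeR adjusted p = 0.006), and Nrgn, the postsynaptic protein neurogranin, fell by 2.04 (SE 0.41, edgeR adjusted p = 0.0113). Both are abundant in hippocampal pyramidal neurons, and neither overlapped between the regions.

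The lists of fatty acid oxidation, cholesterol synthesis, glycolysis and the respiratory chain had 0 or 1 call each, against 8.58% of all genes tested on HFHS, but more under some settings. Of 24 fatty acid oxidation genes edgeR, DESeq2 and voom called 0, with 1 at an unadjusted p under 0.05, and the median was -0.15. Of 23 cholesterol synthesis genes 1 fell, Fdps, the farnesyl diphosphate synthase, at 67 to 87.9 CPM in the hypothalamus against 105 to 142 in the hippocampus (-0.70, SE 0.13, edgeR adjusted p = 0.00815). These ranges did not overlap, and Fdps was called in all 12 fits that left out 1 library. Of 24 glycolysis genes 1 fell, Aldoa (-0.55, SE 0.16, edgeR adjusted p = 0.047), which missed the threshold in 11 of those fits. Vldlr, a lipoprotein and reelin receptor, fell by 1.09 (SE 0.22, edgeR adjusted p = 0.0116), and Apoc1, a small apolipoprotein, rose (1.92, SE 0.42, edgeR adjusted p = 0.0159). The nuclear-encoded respiratory chain gave 0 of 40 calls in edgeR, 8 at an unadjusted p under 0.05, 4 in DESeq2 and 6 in voom, and edgeR called 4 lower without hypothalamus replicate 2. With the astrocyte score as a covariate 5 cholesterol synthesis and 5 respiratory chain genes were called lower, against 2.22% of all genes in that fit. On SC 9 fatty acid oxidation, 5 cholesterol synthesis and 11 respiratory chain genes were called lower, where 8% of all genes were called lower.

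Genes of insulin, insulin-like growth factor and leptin signalling split, with 2 of 22 higher (Socs3 and Igfbp5) and 3 lower (Lepr, Igfbp2 and Igf2). Of all genes tested on HFHS, 4.53% were higher and 4.05% lower. Socs3, the inhibitor that leptin and cytokines induce, measured 204, 149, 93.7, 92.8 and 170 CPM against 34.5, 49.1 and 89.8 CPM as the lowest, median and highest hippocampus value (1.35, SE 0.26, edgeR adjusted p = 0.00938). The regions did not overlap. Socs3 is also on a list of immediate early and dissociation response genes, of which 2 of 22 rose. The mean log2 CPM of that list was 7.72, 6.46, 7.03, 6.90 and 7.34 in the hypothalamus and 5.79 to 7.38 in the hippocampus. The part of the dissociation response in the Socs3 values was not tested. Lepr, the leptin receptor, measured 0.595, 0.673, 5.25, 2.43 and 2.41 CPM in the hypothalamus against 5.36 to 25.9 (-2.45, SE 0.60, edgeR adjusted p = 0.0242) and missed the threshold without hypothalamus replicate 2, 4 or 5. Igfbp2 fell by 1.96 (SE 0.42, edgeR adjusted p = 0.0152) and Igf2 by 1.78 (SE 0.42, edgeR adjusted p = 0.0204), the latter not without hypothalamus replicate 5 (edgeR adjusted p = 0.0532). The choroid plexus score lay between 1.03 and 5.78 in the hypothalamus and between 5.75 and 8.37 in the hippocampus. The part of choroid plexus RNA in these 3 genes was not tested. Without hypothalamus replicate 5 the count that fell was 1, and the count that rose was 1 without hypothalamus replicate 2 or 4 or hippocampus replicate 4 or 5. Of 18 retinoid genes 2 rose, 1 fell and 15 were not called, and the one that fell, Stra6, a retinol-binding protein receptor, missed the threshold in 10 of the 12 fits that left out 1 library. The nuclear receptors Rxra and Rara, which read retinoids, were higher at 1.32 (SE 0.25, edgeR adjusted p = 0.00976) and 1.21 (SE 0.25, edgeR adjusted p = 0.0137), and the thyroid hormone transporter Slco1c1 fell by 1.58 (SE 0.33, edgeR adjusted p = 0.0136).

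Most genes called on HFHS had the same direction on SC. There edgeR called 3783 of 19116 genes (19.8%). Of 1635 genes called on HFHS and also tested on SC, 1629 (99.6%) had the same direction on SC, against 78.3% of all 18622 genes tested on both diets. On SC 1251 of them were called, which is 76.5% of the HFHS calls and 33.5% of the SC calls. Across the 18622 genes, which are not independent replicates, Pearson's r of the 2 fold changes was 0.78 and Spearman's rho 0.74. Rax stood at 5.82 on SC, Gpr50 at 6.54, Nkx2-1 at 3.26, Itih3 at 2.71, Emx2 at -3.29 and Opalin at -1.47. All 13 ependymal markers and 39 of 42 cilia genes were called higher on SC, against 3 and 13 on HFHS, and all 10 choroid plexus markers were called lower, with a median of -5.61 against -2.45.

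The test of whether the diet changed the region difference, an interaction over the 4 groups, called 0 of 20838 genes in edgeR and 0 in voom, with 613 at an unadjusted p under 0.05, while DESeq2 called 3. Among the genes with the smallest p values were Oprk1 and Oprl1, the kappa opioid and nociceptin receptors, and Col27a1 and Kdelr1. Oprl1 had medians of 6.4 CPM in the hypothalamus and 2.94 in the hippocampus on HFHS and of 16.8 and 2.86 on SC, an interaction of -1.66 (SE 0.43, edgeR adjusted p = 1). Oprk1 had 33 to 170 reads per hypothalamus library on HFHS and 6 reads over all 7 hippocampus libraries. None of these differences between diets passed the adjustment. Counts that differ between the diets, such as those of the cilia and choroid plexus lists, are not shown to differ.

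**Figure D4:**
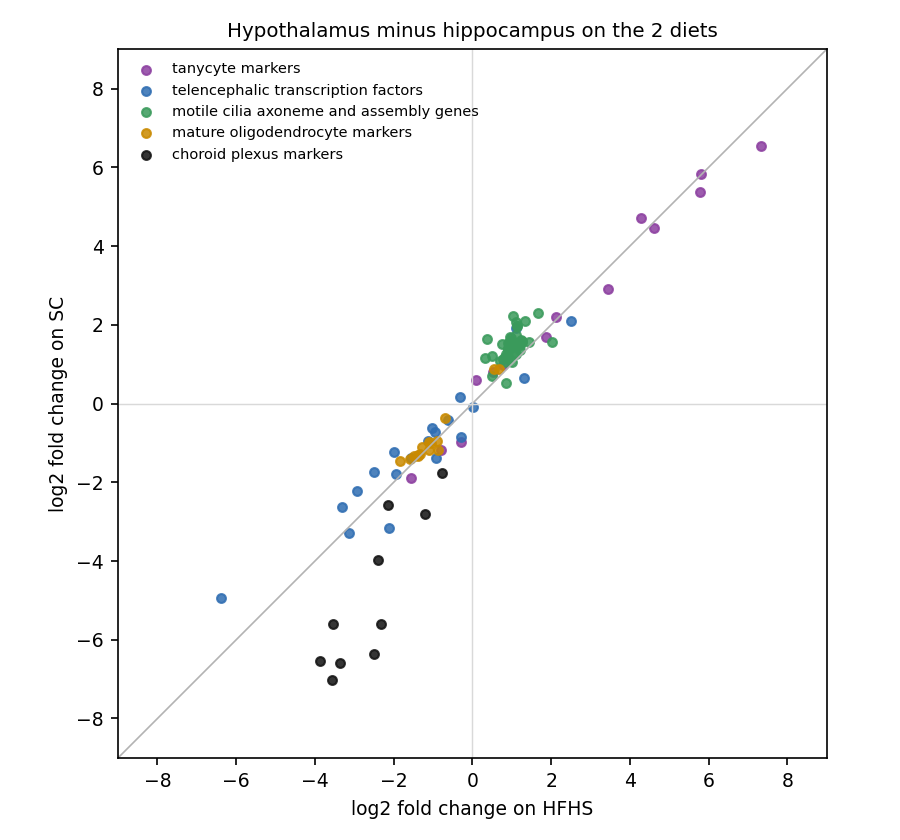
Log2 fold change of hypothalamus minus hippocampus on HFHS (x axis) and on SC (y axis) for members of 5 gene lists; each point is a gene and the grey diagonal marks equal values. All cilia genes and most tanycyte markers lie to the upper right, and telencephalic factors, mature oligodendrocyte and choroid plexus markers mostly to the lower left, the last below the diagonal.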

How the data were processed

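RNA of ACSA2-sorted cells was sequenced; per the submitters' processing notes Salmon and FastQC were used with build GRCm38. The deposited values used are estimated counts per transcript from the authors, with deposited TPM beside them, which served for levels between genes. Estimated counts were summed per gene with GENCODE release 21 (139852 of 140948 transcripts matched) and rounded. Genes were filtered with filterByExpr, scaled with TMM and tested with edgeR 4.0.16 (robust quasi-likelihood, Benjamini-Hochberg, threshold 0.05) in R 4.3.3, with the 12 libraries of the comparison alone. CPM values are TMM-scaled. On simulated data for the HFHS comparison (18722 genes), 99 genes were changed 2-fold and 95 were changed 4-fold, and each gene was drawn independently. Of these, 20.2% and 64.2% were recovered, with 4 unchanged genes called. The data had more calls and had libraries that stood apart, so these shares may not hold for them. Alternatives were DESeq2 1.42.0, limma 3.58.1 voom, other scalings, filters and designs, and leaving out each library. Named genes were the 15 called genes with the largest and the 15 with the smallest log2 fold change whose average log2 CPM reached 4, up to 4 genes of smallest p in each list, those with the largest differences in the fit with the astrocyte score, those of smallest interaction p, and Atp1b2, Gfap and Aqp4. A gene with no described role could be left out, and results of some genes are not reported here. Other genes named beside these were chosen after their values were seen. Members and lists were chosen with earlier results of these data known. Each replicate is a pool, and nothing in the labels says more on how pools were formed, so p values measure the spread between pools.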

Additional observations from a re-analysis of the deposited data

Results flagged for a closer look

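A library was picked out where it stood far from the others of its region by Dixon's test, which flags about 5% of groups by chance. Of 298 groups of values 51 (17.1%) had such a library, and the groups share libraries and are not independent. In hippocampus replicate 1 the highest value of its region was seen for Bcas1 (2158 CPM). In hippocampus replicate 2 the highest value of its region was seen for Spon1 (89.5 CPM), Itih3 (307 CPM), Slc6a11 (365 CPM) and Gpld1 (171 CPM). In hippocampus replicate 3 the highest value of its region was seen for Irx5 (12.6 CPM). In hippocampus replicate 4 the highest value of its region was seen for Isl1 (0.402 CPM). In hippocampus replicate 5 the highest value of its region was seen for Rax (1.37 CPM), Cd59a (195 CPM), Avp (21.4 CPM), Pdgfra (31.4 CPM), Sostdc1 (670 CPM), Prlr (400 CPM), Trpv4 (178 CPM) and Slc4a10 (186 CPM). In hippocampus replicate 5 the highest value was also seen for Pitx1 (0.0397 CPM). In hippocampus replicate 7 the highest value of its region was seen for Col25a1 (1.43 CPM), Frzb (7.57 CPM), Nkx2-4 (0.0291 CPM), Vip (1.19 CPM) and Hpca (77.5 CPM). In hypothalamus replicate 1 the highest value of its region was seen for Npy (9.7 CPM). In hypothalamus replicate 2 the highest value of its region was seen for Dio2 (29.9 CPM), Foxb1 (16.4 CPM), Atp1b2 (1875 CPM), Slc1a2 (1263 CPM), Slc4a4 (474 CPM), Spon1 (680 CPM), Itih3 (2974 CPM) and Igsf1 (351 CPM). In hypothalamus replicate 2 the highest value was also seen for Slc6a11 (2188 CPM), Lrig1 (403 CPM), Gria1 (355 CPM), Etnppl (560 CPM), Cd38 (296 CPM), Sdc3 (421 CPM), Dtx1 (200 CPM) and Gpld1 (675 CPM). In hypothalamus replicate 2 the highest value was also seen for Fbln5 (263 CPM), Sfrp5 (193 CPM), Sparc (7069 CPM), Gabbr2 (57.5 CPM), Kcnd2 (93.2 CPM) and Kdelr1 (45 CPM). The astrocyte score of hypothalamus replicate 2 (10.30) was the highest of its region, and its mural cell score (3.84) the lowest mural cell score of its region. In hypothalamus replicate 3 the lowest value of its region was seen for Nnat (2590 CPM). In hypothalamus replicate 4 the highest value of its region was seen for Rfx2 (102 CPM) and Pitx1 (15.4 CPM). In hypothalamus replicate 4 the lowest value of its region was seen for Tbr1 (0.153 CPM). In hypothalamus replicate 5 the highest value of its region was seen for Neurod2 (0.729 CPM).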

How the results depend on the processing

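The HFHS comparison called 1656 genes. It called 3198 with DESeq2 (384 without an adjusted p), 2681 with voom, 2648 in a fit of 4 groups, 942 with the astrocyte score as covariate, 80 with the ependymal score added and 81 when tested against a log2 fold change of 1. Leaving out 1 library gave 773 to 1806. A fit of all 6 groups called 1385, of which 66.1% were higher in the hypothalamus against 52.8%. The hypothalamus share was 43.9% with upper quartile scaling and 60.7% with the replicate block. The diet test called 3 genes in DESeq2 against 0. Leaving out replicate 2 of both regions, chosen after seeing the data, called 1184.

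Same-numbered libraries correlated at 0.182, 0.503, 0.0394, -0.0194 and 0.4, and those on SC at 0.38, 0.234, -0.066, 0.3 and 0.294. Hypothalamus replicates 2 and 5 on HFHS and 1, 2 and 4 on SC correlated best with the hippocampus library of their own number. Replicates 1, 3 and 4 on HFHS and 3 and 5 on SC did not. Pairs of other numbers ran from -0.483 to 0.421 on HFHS and from -0.486 to 0.357 on SC, with many below 0. Among same-numbered pairs only replicate 4 on HFHS and replicate 3 on SC were below 0, so same numbers tended to correlate higher. Not every such pair was over 0.1 on either diet, and the numbers were not taken as pairing. The main fit can therefore ignore a real pairing. Whether libraries of the same number share animals or handling was not settled, and the p values of the main fit rest on that choice. With the replicate block 2492 genes were called, 1359 of them among the 1656, 9 named genes missed the threshold (Adcyap1, Gpr17, Tnr, Aqp1, Slc4a10, Slc17a7, Aldoa, Tbr1 and Ak7), and Slc1a2 and Dio2 turned to 0.15 and 0.11. The direction also turned for Col27a1 without hypothalamus replicate 3 (-0.07, and up to 0.43 without another single library), for Sox9 (-0.55), Aqp4 (-0.86) and Ak7 (-0.23) with both scores as covariates, and for Agrp (-0.04) without replicate 2 of both regions, where single libraries left out gave 0.16 to 0.67. The cause was not tested. Depth limits genes with few reads, and 5 pools limit the precision of the hypothalamus values.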

Other observations

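Genes of the pituitary and its stalk were chosen here after their values were seen. Cga, the common subunit of the glycoprotein hormones, had 196 to 2276 reads per hypothalamus library and 8 reads over the 7 hippocampus libraries (edgeR adjusted p = 6.07e-05). Pitx1, a pituitary homeobox factor, had 18 to 1006 reads and 2 reads in total (edgeR adjusted p = 0.00161). Both were highest in hypothalamus replicate 4. Tshr, the thyrotropin receptor, measured 25.3, 17.6, 13.9, 27.1 and 16.2 CPM against 0.785 to 2.18 in the hippocampus (log2 fold change 3.73, SE 0.28, edgeR adjusted p = 2.08e-05). Sytl4, a protein of granule exocytosis, measured 56.9, 38.1, 24, 45.5 and 51.2 CPM against 0.496 to 1.64 (5.27, SE 0.32, edgeR adjusted p = 4.25e-06). The regions did not overlap in any of these 4 genes.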
